A study of Drosophila melanogaster with 40 samples.

Results

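The Jonah proteases, the trypsins and Ser6 are serine protease genes that the fly gut uses to digest protein. They were taken from the count table as every gene whose FlyBase symbol starts with Jon and a number or ends in Try, together with Ser6. The rule found 28 of 17609 genes, namely 16 Jonah genes, 11 trypsins and Ser6. RNA of whole Drosophila melanogaster was sequenced from its 3′ end in 40 libraries, 1 per condition. Flies without insulin-producing cells (ablated) gave 7 libraries of old and 7 of young flies, and wild-type (WT) flies gave 13 libraries of old and 13 of young flies. In each of these 4 combinations, 1 library came from flies kept without heat as a 4 h control, and the rest from flies taken 0, 1, 2, 4, 6 or 8 h after heat treatment. WT flies given heat were sorted by a climbing test into non-climbers and climbers, with 1 library of each per age and hour, and ablated flies given heat were all climbers. The strain, the driver used for the ablation, the sex and the ages in days were not given in the sources used here, nor was the number of flies per library.

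Trypsins cut proteins after lysine or arginine, and the Jonah genes, named for their place on the polytene chromosomes, code for related proteases of the chymotrypsin fold. Enterocytes of the midgut make both as inactive precursors and release them into the gut lumen, where food protein is broken down. Their transcript levels are known to follow food intake and nutrient state. The insulin-producing cells are brain neurons that secrete the insulin-like peptides Ilp2, Ilp3 and Ilp5.

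The genes lie in a few clusters. In the dm6 build, the 11 trypsins sit within 20698 bp of chromosome arm 2R (11336840 to 11357537), and Jon44E lies elsewhere on that arm. The 3 Jon25B genes lie on 2L, the 4 Jon65A genes, the 2 Jon66C genes and Jon74E on 3L, the 3 Jon99C and 2 Jon99F genes on 3R, and Ser6 on X (20962605 to 20963505). All are protein-coding genes with 1 to 3 exons. The 3′ ends of lambdaTry and kappaTry face each other 6 bp apart, and the 3′ parts of Jon44E and deltaTry overlap a gene on the other strand (CG8586 and CG13202). The strand setting of the counting was not stated, so reads of such neighbours cannot be told apart. gammaTry had no count in any library. It belongs with deltaTry to a set of nearly identical trypsin copies, so the count of either gene is uncertain.

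Levels are given as CPM, counts scaled to a common library total after TMM. Each transcript yields about 1 fragment in 3′ sequencing, so CPM was not divided by gene length. As a mean over the 40 libraries, 11 of the 28 genes reached 100 CPM, 8 lay between 10 and 100 CPM, 6 between 1 and 10 CPM, and Jon66Cii, Jon74E and gammaTry lay under 1 CPM. The most abundant were alphaTry, Jon25Biii, betaTry and Jon25Bi, which made up 55.0% of the summed level, and the top 10 made up 91.6%. Together the 28 genes took between 0.0881% and 1.28% of a library's counts. Library totals ran from 11714961 to 48747409 counts. A level of 100 CPM thus rests on many counts in every library, whereas Jon66Cii, for example, had 0 to 71 counts per library.

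The count filter kept 27 of the 28 genes, all but gammaTry, and these were tested. Since no condition was replicated, edgeR's quasi-likelihood test measured each effect against the scatter around additive terms for genotype and age, for state (control or hour) and for behaviour. Adjusted p-values are Benjamini-Hochberg values over all 11449 genes tested, and a gene was called at an adjusted p under 0.05. Log2 fold changes carry their standard error (SE).

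Some libraries stood apart. The first principal component of 898 noncoding genes separated 12 ablated libraries (set 2) from all 26 WT libraries plus 2 ablated young ones, those of 0 h and of 1 h (set 1), so genotype can hardly be told apart from this split. The 5 batches of the labels followed genotype, age and hour, with batches 1 to 3 holding WT libraries only. In the library labelled ablated young control the mean of 11 heat shock genes was 6.19 on the log2(CPM + 1) scale, against 3.90 to 5.14 in the other 3 controls, and in the library labelled ablated young 6 h it was 4.06. Both values go against the labels, and counts that moved without these 2 libraries are given beside the results. Transcripts of the peptides of the ablated cells (Ilp2, Ilp3, Ilp5) summed to 0 to 1.01 CPM in ablated libraries (median 0.105) and 1.06 to 4.01 CPM in WT libraries (median 1.94). Male genes summed to at most 1.67 CPM in every library except that of WT young 6 h non-climbers, at 74.3 CPM, whereas yolk and eggshell genes were high throughout. Leaving out all 6 h libraries moved 1 count of called genes by over 1.5 times, that for age in ablated flies.

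The summed level of the 28 genes was higher in ablated than in WT libraries of the same age. It was 4303 to 8386 CPM in ablated old flies (median 5071) and 5602 to 12104 CPM in ablated young flies (median 8530), against 818 to 2621 CPM in WT old flies (median 1185) and 1525 to 5459 CPM in WT young flies (median 4436). Within an age no ablated library overlapped a WT library. Ablated libraries were above the WT library of the same age, treatment and hour in 7 of 7 old pairs (median ratio 4.09) and 7 of 7 young pairs (median ratio 1.80). In whole-fly RNA, fewer gut cells and less RNA per gut cell cannot be told apart.

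**Figure D1:**
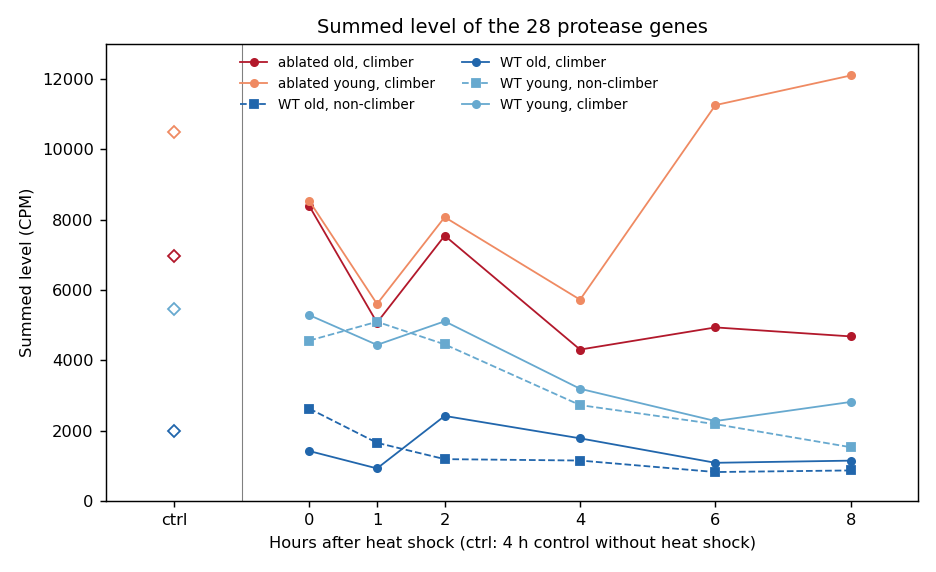
Summed level (CPM, linear axis) of the 28 genes at each hour after heat shock in the 6 series of libraries, 1 library per point, with the 4 h controls as open diamonds on the left. Ablated series lie above the WT series of the same age, WT old flies lie lowest, and the library labelled ablated young 6 h rises to 11261 CPM.

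Within the ablated young series the hours did not form a trend: 8530 CPM at 0 h, 5602 at 1 h, 8072 at 2 h, 5723 at 4 h, 11261 in the library labelled 6 h and 12104 at 8 h, with 10501 in the library labelled control. The ablated old series gave 8386, 5071, 7545, 4303, 4934 and 4678 CPM over the same hours and 6954 in its control. Both ablated series dipped at 1 h and 4 h. WT climbers also dipped at 1 h, with 5283, 4436 and 5108 CPM at 0, 1 and 2 h in young flies. In WT old climbers the sum was 1416, 921 and 2415 CPM at these hours. The share of the Jonah genes in the sum had medians of 67.7% in ablated old, 65.3% in ablated young, 56.9% in WT old and 65.4% in WT young flies.

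In old flies, 22 of the 27 genes were higher in ablated than in WT flies and none was lower. Over all genes tested 56.9% were called in this comparison and 29.9% were called higher. The median log2 fold change of the 27 genes was 1.63, against 0.08 over all genes tested. In young flies 18 of 27 were higher and none lower, where 33.0% of all genes were called and 18.2% were called higher, and the median was 0.97, against 0.04 over all genes. With the 2 doubtful libraries (labelled control and 6 h, ablated young) left out, 12 of 27 were called in young flies, with a median of 0.83, where 23.4% of all genes were called.

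Ser6, a gut serine protease on X, had the smallest adjusted p of the 27 at both ages. Its level was 17.0 to 34.2 CPM in ablated old flies (median 27.7) and 14.6 to 43.7 CPM in ablated young flies (median 29.5), against 3.23 to 5.48 CPM in WT old flies (median 3.79) and 2.68 to 4.74 CPM in WT young flies (median 3.44). No ablated library came as low as the highest WT library. Its log2 fold change was 2.47 ± 0.19 in old flies (adjusted p = 1.50e-12) and 3.02 ± 0.19 in young flies (adjusted p = 8.76e-14). The ablated young libraries that group with WT on noncoding genes, of 0 h and 1 h, held 22.2 and 18.2 CPM of Ser6, and with only the 28 libraries of set 1 its young log2 fold change was 2.48.

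Jon65Aii, a Jonah protease of the 65A cluster, showed the largest difference of the 27. It reached 4.10 to 17.7 CPM in ablated old flies (median 12.5) and 20.5 to 45.3 CPM in ablated young flies (median 29.7), against 0 to 0.562 CPM in WT old flies (median 0.307) and 0.888 to 7.44 CPM in WT young flies (median 3.56). The WT old values are 0 to 10 counts per library, with 3 of 13 libraries at 0. The groups did not overlap at either age. The log2 fold change was 5.36 ± 0.55 in old flies (adjusted p = 1.58e-09) and 3.52 ± 0.44 in young flies (adjusted p = 4.79e-07). The ablated young libraries of 0 h and 1 h held 29.7 and 24.3 CPM, and in set 1 alone its young log2 fold change was 3.31.

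**Figure D2:**
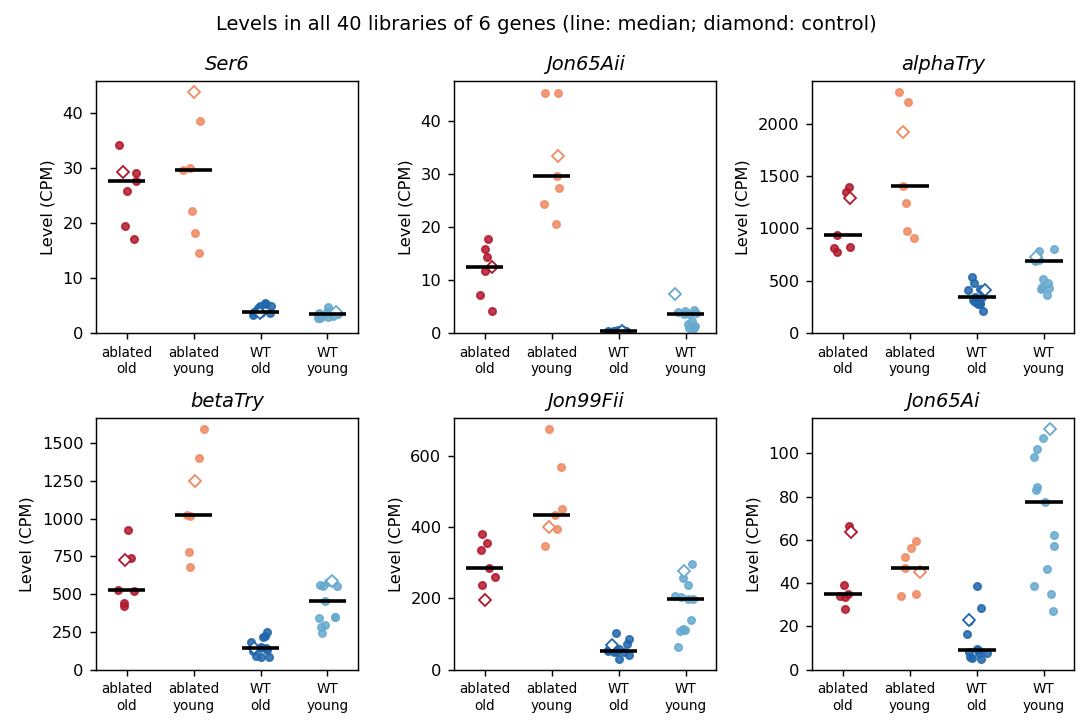
Levels (CPM, linear axes from 0) of 6 genes in all 40 libraries, split by genotype and age, with the median as a line and controls as open diamonds. Ser6 and Jon65Aii separate ablated from WT libraries at both ages, whereas the median of Jon65Ai is lower in ablated young (47.0 CPM) than in WT young libraries (77.3 CPM).

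The abundant trypsins followed the same order at a smaller size. alphaTry was at 774 to 1393 CPM in ablated old flies and 909 to 2303 CPM in ablated young flies, against 209 to 537 CPM in WT old flies and 366 to 802 CPM in WT young flies. Its log2 fold change was 1.50 ± 0.20 in old and 1.38 ± 0.21 in young flies (edgeR adjusted p = 3.00e-07 and 6.65e-06). betaTry, a trypsin of the same cluster, had log2 fold changes of 1.99 ± 0.23 and 1.33 ± 0.23 in old and young flies. Neither trypsin overlapped between genotypes within an age.

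Among the Jonah genes, those of the 99C and 25B clusters followed Jon65Aii in size of difference in old flies. The log2 fold changes were 2.99 ± 0.53 for Jon99Ci, 2.71 ± 0.46 for Jon99Ciii, 2.67 ± 0.47 for Jon25Biii, 2.55 ± 0.37 for Jon25Bi, 2.47 ± 0.48 for Jon99Cii and 2.35 ± 0.48 for Jon25Bii, each with an edgeR adjusted p of at most 0.000126. In young flies Jon99Ci (2.26 ± 0.51), Jon25Bi (1.62 ± 0.36), Jon25Bii (1.42 ± 0.47) and Jon99Fii (1.33 ± 0.26) were among the 18 called. The 5 genes not called in old flies were etaTry, deltaTry, Jon66Ci, Jon66Cii and Jon74E, of which the last 4 were of low level. Jon65Ai, Jon99Fi, thetaTry and Jon44E were called in old but not in young flies, where their log2 fold changes were -0.51 ± 0.34, 0.13 ± 0.30, 0.20 ± 0.22 and 0.56 ± 0.39, and the test of the difference between the ages called all 4.

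Without overlap between the libraries of both genotypes, 14 of the 27 genes lay above WT in old flies, where 9.21% of all genes did so, and 8 in young flies, where 2.86% did. The 8 were Ser6, Jon65Aii, alphaTry, betaTry, Jon25Bi, Jon99Ci, Jon99Cii and Jon99Fii.

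The genotype difference of most of these genes could not be separated from the library set or the batch. With library set as a covariate, 3 of 27 were called higher in old flies (Jon65Aii, Ser6 and Jon99Fii), where 4.3% of all genes were called. All ablated old libraries were in set 2 and all WT old libraries in set 1. The set effect taken off in old flies was thus estimated from ablated young libraries only. In young flies 2 of 27 were called higher in this fit (Jon65Aii and Ser6), where 14.5% of all genes were called. With the 28 libraries of set 1 alone the same 2 were called in young flies, where 20.7% of all genes were, and the median log2 fold change was 0.02. In young flies the share of the 27 called was thus below that over all genes in both fits. With batch as a covariate only Ser6 was called in young flies (1.57% of all genes) and none in old flies (1.55% of all genes). Batch 4 was the only batch with both genotypes, with ablated young libraries of 0 h to 6 h beside WT old libraries of 8 h. Within it the sum was 5602 to 11261 CPM in the ablated libraries, against 864 and 1143 CPM in the WT libraries, and Ser6 was at 14.6 to 43.7 CPM, against 3.69 and 5.48 CPM, so that age and hour differed along with genotype. DESeq2 called 22 genes in old and 18 in young flies, as many as edgeR.

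**Figure D3:**
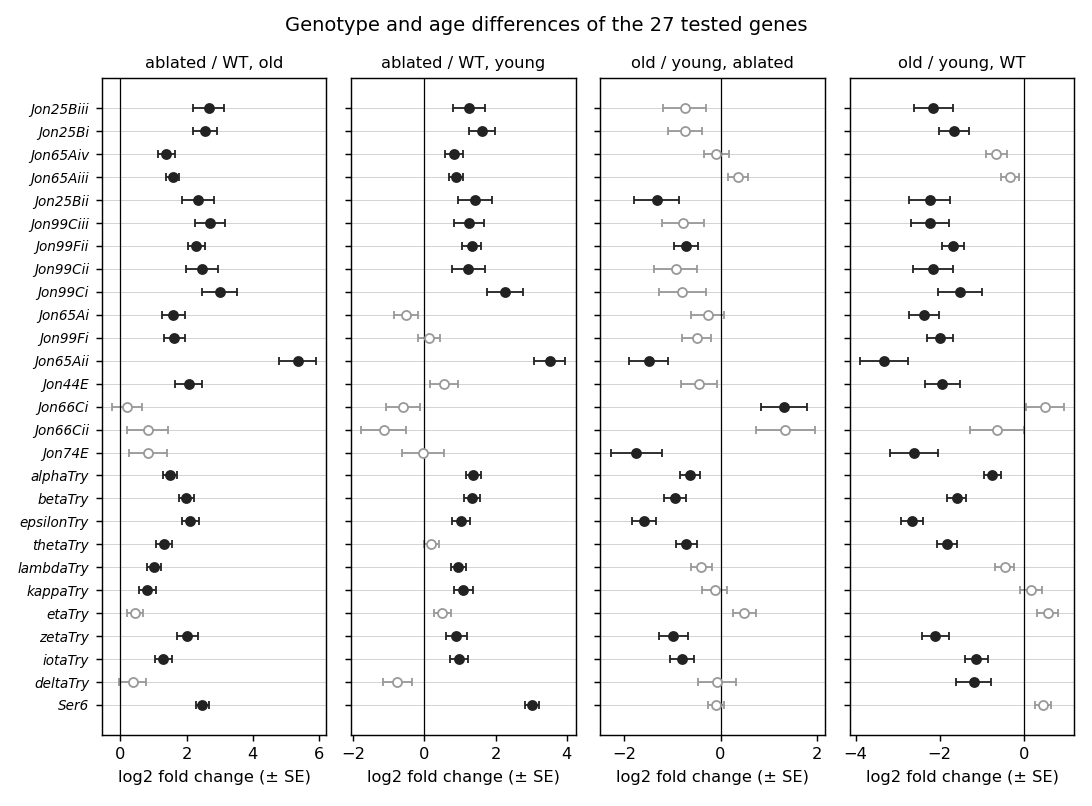
Log2 fold change (± SE, edgeR) of the 27 tested genes for ablated against WT in old and young flies and for old against young in ablated and WT flies, with filled points for genes called at an adjusted p under 0.05 and each panel on its own axis. All 27 genotype differences in old flies and 22 of 27 in young flies lie to the right of 0, and 23 of 27 age differences lie to the left in either genotype, with medians of -0.71 in ablated and -1.65 in WT flies.

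Most of the proteases were lower in old flies. In WT flies 19 of 27 genes were lower in old than in young flies and none was higher, where 23.5% of all genes were called and 11.7% were called lower. The median log2 fold change was -1.65, against 0.02 over all genes. The summed level was lower in old flies in 13 of 13 pairs of the same hour and behaviour, at a median ratio of 0.406.

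epsilonTry, a trypsin beside alphaTry, had the smallest adjusted p. It was at 9.30 to 38.2 CPM in WT old flies (median 18.0), against 38.1 to 204 CPM in WT young flies (median 142). Those ranges touch at 38 CPM, where the lowest WT young library was that of 8 h non-climbers. The log2 fold change was -2.66 ± 0.27 (adjusted p = 2.50e-08). Jon65Aii and zetaTry did not overlap between the ages in WT flies, as for 0.996% of all genes that lay lower in old flies. zetaTry was at 0.648 to 5.03 CPM in WT old flies, against 5.09 to 15.9 CPM in WT young flies, with a log2 fold change of -2.11 ± 0.32.

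Other falls in WT flies were of similar size. Log2 fold changes were -3.32 ± 0.57 for Jon65Aii, -2.38 ± 0.36 for Jon65Ai, -2.24 ± 0.48 for Jon25Bii, -2.23 ± 0.45 for Jon99Ciii, -2.17 ± 0.48 for Jon99Cii and -2.15 ± 0.46 for Jon25Biii. The most abundant gene, alphaTry, fell least among the 19, by 0.75 on the log2 scale. The 8 not called were Jon65Aiii, Jon65Aiv, lambdaTry, kappaTry, etaTry, Ser6, Jon66Ci and Jon66Cii, with log2 fold changes from -0.65 to 0.57.

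Age and batch followed each other in WT flies. Batch 2 held WT old libraries of 0 h and 1 h at 1416 to 2621 CPM in sum, against 5459 CPM in the WT young control and 1525 to 2813 CPM in WT young 6 h and 8 h libraries, so within that batch the ages also differed in hour. epsilonTry within batch 2 was at 20.8 to 38.2 CPM in WT old libraries, against 142 CPM in the WT young control and 38.1 to 64.7 CPM at 6 h and 8 h. With batch as a covariate no gene of the 27 was called in WT flies (79 of all genes were), and the median log2 fold change was -0.54.

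In ablated flies 10 genes were lower and 1 was higher in old than in young flies. Over all genes tested 37.0% were called and 21.3% were called lower. The share of the 27 called in either direction, 40.7%, was near that over all genes. The median log2 fold change was -0.71, against -0.003 over all genes, and the sum was lower in 7 of 7 pairs (median ratio 0.752). epsilonTry was at 53.3 to 137 CPM in ablated old flies, against 149 to 300 CPM in ablated young flies, a log2 fold change of -1.58 ± 0.26 (adjusted p = 1.36e-05). Jon25Bii (-1.32 ± 0.46), Jon65Aii (-1.49 ± 0.39), zetaTry (-0.98 ± 0.30), betaTry (-0.93 ± 0.23), iotaTry (-0.80 ± 0.25) and Jon99Fii (-0.71 ± 0.25) fell as well. Jon66Ci, a low-level Jonah gene, rose by 1.31 ± 0.47 on the log2 scale (adjusted p = 0.0289), and was called in 9 of 19 alternative fits, with log2 fold changes from -1.06 to 2.08 and the negative value with batch as a covariate. Batch 5 held both ages at 8 h, where the sum was 4678 CPM in ablated old and 12104 CPM in ablated young flies. Leaving out the 2 libraries in doubt (labelled control and 6 h) gave 7 calls of 27, where 37.9% of all genes were called. Leaving out every 6 h library also gave 7, where 37.5% of all genes were called. In both fits the share of the 27 called was below that over all genes.

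The test of the difference between these age effects called 8 genes, all with a smaller fall in ablated flies. Over all genes tested 36.4% were called and 15.5% were called higher. The share of the 27 called, 29.6%, was below the first of these and above the second. The median difference was 0.93, against -0.08 over all genes. Jon65Ai had the largest, 2.11 ± 0.49 on the log2 scale (adjusted p = 0.00145). It was at 28.3 to 66.2 CPM in ablated old and 34.2 to 59.7 CPM in ablated young flies, whereas WT flies held 5.01 to 38.7 CPM when old and 27.1 to 111 CPM when young. The other 7 were Jon65Aii, Jon99Fi, Jon44E, zetaTry, thetaTry, epsilonTry and Jon99Fii, with differences of 0.97 to 1.83. With the 2 doubtful libraries (labelled control and 6 h, ablated young) left out, 10 of 27 were called (39.4% of all genes) with a median of 1.19, and 7 of the 8 genes stayed called, all but Jon99Fii. When the ablated young libraries of 0 h and of 1 h were left out 4 of 27 were called, a share below the 27.8% over all genes. Of the 4, 3 were among the 8 (Jon65Ai, Jon99Fi and thetaTry). There were also 4 without every 0 h library (27.8% of all genes), without every 2 h library (31.8%) or without the WT young control (34.5%). Without every 1 h library there were 3 (27.5% of all genes). With library set as a covariate 4 were called, where 26.7% of all genes were. Jon65Ai, Jon99Fi and thetaTry kept the smaller fall in ablated flies, whereas Ser6 had a difference of the other sign (-0.73). With batch as a covariate none was called (2.22% of all genes), and the median was -0.66. Of the 14 female genes for yolk and eggshell, 7 were higher in this test and none lower (median 1.14), with 4 lower in old than in young WT flies (median -0.94) and none called between ablated old and ablated young flies (median 0.05). Between genotypes 2 of the 14 were higher in ablated old flies and 7 were lower in ablated young flies. Their part in the protease results was not tested.

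At 4 h after heat shock 1 of 27 genes was lower than in the controls and none was higher, where 0.769% of all genes were called and 0.148% were called lower. The gene was Jon65Aiv, a Jonah protease of the 65A cluster. In heat-shocked flies at 4 h it was at 390 CPM (ablated old), 297 CPM (ablated young), 223 CPM (WT old climbers), 130 CPM (WT old non-climbers), 224 CPM (WT young climbers) and 201 CPM (WT young non-climbers). The controls held 978, 993, 404 and 610 CPM in ablated old, ablated young, WT old and WT young flies. Every heat-shocked 4 h library thus lay below the control of its genotype and age, at 0.299 to 0.551 of it. WT climbers and non-climbers shared 1 control per age, so these ratios are not independent. The lowest, 0.299, was against the library labelled ablated young control, whose heat shock genes go against its label. The log2 fold change was -1.24 ± 0.30 (adjusted p = 0.0443). With the 2 doubtful libraries (labelled control and 6 h, ablated young) left out, again 1 of 27 was called, where 3.33% of all genes were. The count was also 1 in set 1 alone (3.85% of all genes) and in WT libraries alone (3.98%). In these fits the share of the 27 called, 3.7%, was near that over all genes.

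Jon65Aiv was called in 13 of 20 alternative fits, and its log2 fold change stayed between -1.37 and -1.14. The call was lost without a count filter and without the libraries of 0 h, 1 h or 2 h, the WT young control, the WT old control or the ablated old control. Among the other genes, 24 of 26 had negative values at 4 h, with a median of -0.41 over the 27, and those nearest the threshold were Jon65Aiii (-0.86 ± 0.25, adjusted p = 0.0946) and iotaTry (-0.97 ± 0.31, adjusted p = 0.132). The summed level at 4 h lay below the control in 6 of 6 series, at 0.499 to 0.898 of it. These 6 series shared 4 controls, of which the ablated young one is in doubt. Of the 14 female genes for yolk and eggshell, none was called at 4 h (median log2 fold change -0.55).

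Immediately after heat shock, at 0 h, no gene of the 27 was called in either direction by edgeR or by DESeq2, and none had an unadjusted p under 0.05, where 3.87% of all genes were called. At 8 h against the controls again none was called by edgeR or DESeq2, where 0.707% of all genes were, but 9 of 27 had an unadjusted p under 0.05, and 26 of 27 log2 fold changes were negative (median -0.64). In WT libraries alone 2 of 27 were called at 8 h against the control, where 6.56% of all genes were, a share near that over all genes. In the 28 libraries of set 1 there were 4, where 6.45% of all genes were called. Of the 14 female genes for yolk and eggshell, 5 were lower at 8 h than in the controls (median -1.29).

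Late hours were set against the first. Over all libraries 3 of 27 genes were lower at 8 h than at 0 h and 1 was higher, where 10.5% of all genes were called, 4.03% lower and 6.46% higher. The median log2 fold change was -0.67, against -0.06 over all genes. In the test of any difference among hours 3 of 27 were called. This share, 11.1%, was near the 8.71% over all genes. Without the 0 h libraries 1 was called (4.37% of all genes), and without those labelled ablated young control and 6 h 5 were (9.83%). The sum at 8 h was 0.545 of that at 0 h as a median of 6 series, below it in 5 of them and above it in ablated young climbers.

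**Figure D4:**
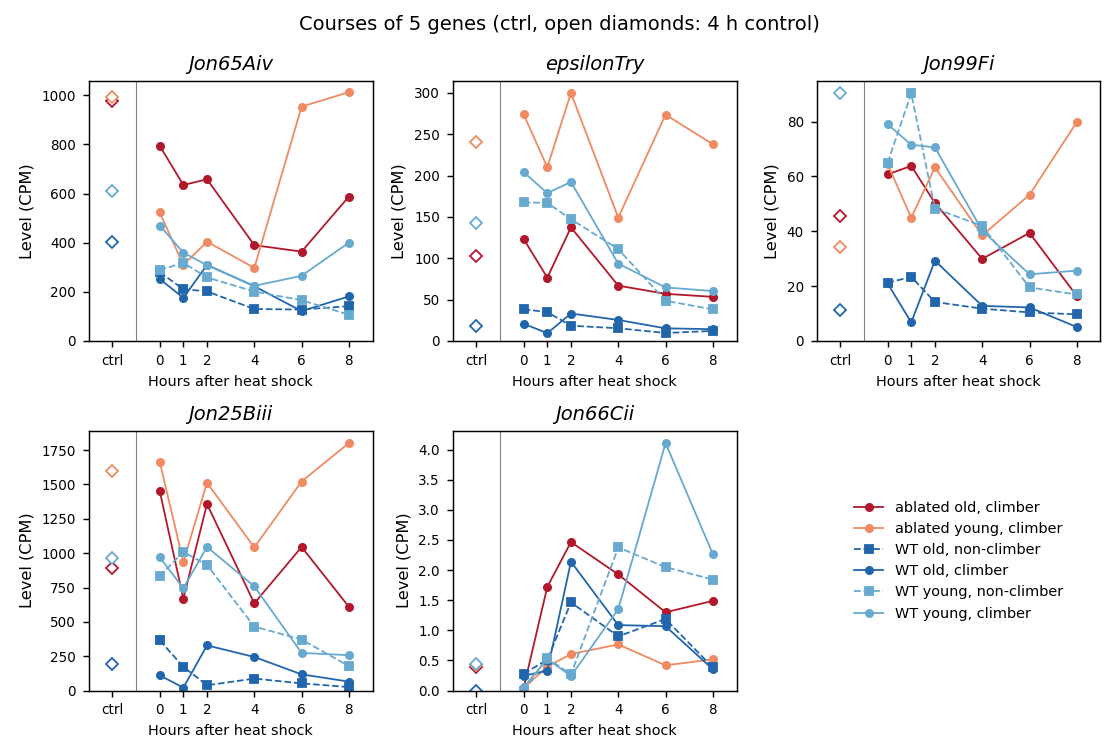
Levels (CPM, linear axes) of 5 genes at each hour after heat shock in the 6 series, 1 library per point, with the 4 h controls as open diamonds at the left. In WT young flies epsilonTry and Jon99Fi are lower at 6 h and 8 h than at 0 h to 4 h, and Jon66Cii stays below 5 CPM throughout.

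epsilonTry was called both at 8 h against 0 h (log2 fold change -1.23 ± 0.28, adjusted p = 0.00328) and among all hours (adjusted p = 0.00385). At 8 h it was at 53.3 CPM in ablated old, 238 CPM in ablated young, 12.1 CPM in WT old non-climbers, 14.1 CPM in WT old climbers, 38.1 CPM in WT young non-climbers and 60.3 CPM in WT young climbers. At 0 h the same series held 123, 274, 38.2, 20.8, 168 and 204 CPM. Each series was lower at 8 h than at 0 h, at a median ratio of 0.374.

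Jon99Fi, a Jonah protease of the 99F cluster, gave a log2 fold change of -1.20 ± 0.33 (adjusted p = 0.0173). WT young climbers went through 79.0, 71.6, 70.6, 40.2, 24.3 and 25.6 CPM over the hours, and WT young non-climbers through 64.9, 90.2, 48.2, 41.9, 19.5 and 16.9 CPM. In ablated young flies it was at 79.8 CPM at 8 h and 64.5 CPM at 0 h. Jon25Biii, an abundant Jonah protease, gave -1.60 ± 0.50 (adjusted p = 0.0381), with 178 and 258 CPM at 8 h in WT young non-climbers and climbers, against 833 and 970 CPM at 0 h. In ablated young flies Jon25Biii was at 1802 CPM at 8 h and 1666 CPM at 0 h, the only series of the 6 in which it was not lower at 8 h. Jon99Fi kept its call in 17 of 18 alternative fits and Jon25Biii in 13.

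Jon66Cii, a low-level Jonah gene, was higher at 8 h than at 0 h (log2 fold change 3.08 ± 0.75, adjusted p = 0.00546). It rested on 6 to 51 counts per library at 8 h and 0 to 6 counts at 0 h, so its size is uncertain. Every series held more of it at 8 h. At 2 h, 4 h and 6 h levels were 0.24 to 4.11 CPM, against 0 to 0.28 CPM at 0 h.

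The WT young libraries of 6 h and 8 h and their control came from batch 2, and those of 0 h to 4 h from batch 1. Within batch 2 the sum of these WT young libraries was 1525 to 2813 CPM at 6 h and 8 h, against 5459 CPM in the control. The 0 h and 8 h libraries also differed in batch in WT old flies (batches 2 and 4) and in ablated young flies (batches 4 and 5). Only in ablated old flies were both in the same batch, batch 5. With batch as a covariate 1 of 27 was called at 8 h against 0 h, where 2.38% of all genes were called. The median log2 fold change of the 27 in this fit was -0.48. In WT libraries alone 13 of 27 were called, with a median of -1.08, where 12.4% of all genes were called. Eggshell genes changed at the same time, with 8 of 14 female genes lower at 8 h, among them Vm26Aa (-3.45 ± 0.44) and Yp1 (-0.95 ± 0.24). None of the 14 was at 0 throughout, and their summed level was 12090 to 25308 CPM in ablated old, 9664 to 21334 CPM in ablated young, 5401 to 24147 CPM in WT old and 13775 to 35602 CPM in WT young flies. Their part in the hour differences was not tested.

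No protease gene was called between non-climbers and climbers of WT flies. None of the 27 genes was called by edgeR or by DESeq2, where 0% of all genes were called by edgeR (429 at an unadjusted p under 0.05) and 1 gene by DESeq2. Of the 27, 1 had an unadjusted p under 0.05. That gene was Jon65Aiv (log2 fold change -0.42 ± 0.19, unadjusted p = 0.033, edgeR). The sum was lower in non-climbers in 9 of 12 pairs of the same age and hour, at a median ratio of 0.859 and a range of 0.491 to 1.85. The median log2 fold change was -0.13, and 24 of 27 were negative. These values do not show that the groups are alike.

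The course over hours was also compared as a slope on log2(hour + 1) in the 24 heat-shocked climber libraries. No gene of the 27 was called between ablated and WT flies by edgeR, where 0.610% of all genes were, although 3 had an unadjusted p under 0.05 and DESeq2 called 1. The largest of the 3 was that of kappaTry, 0.42 ± 0.12 per unit of log2(hour + 1) higher in ablated flies (adjusted p = 0.0845). Between old and young flies edgeR and DESeq2 called none of the 27, where edgeR called 0.00872% of all genes, and 4 had an unadjusted p under 0.05, of which etaTry gave -0.56 ± 0.15 (adjusted p = 0.404).

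Other digestive enzymes were set beside the proteases, with the same limit that library set and batch follow genotype. The shares of all genes called, given above, were 56.9% in old and 33.0% in young flies between genotypes, and 23.5% in WT and 37.0% in ablated flies between ages. Of 13 genes for starch and sugar digestion, 12 were higher in ablated old flies and 13 in ablated young flies than in WT flies, with medians of 1.28 and 1.56. The maltase genes Mal-A7 (2.91 ± 0.27 in old, 2.44 ± 0.25 in young flies) and Mal-A4 (2.71 ± 0.28 and 1.78 ± 0.26) and the amylase-like Amyrel (2.00 ± 0.60 and 1.76 ± 0.56) were among them. Of 7 digestive lysozymes, which break down bacterial walls, 5 were higher and 1 lower in ablated flies at both ages. LysE rose by 3.97 ± 0.57 in old and 3.64 ± 0.53 in young flies, and LysX fell by 2.54 in old and fell by 3.39 in young flies.

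Between old and young WT flies 5 of 13 sugar genes were lower and 1 was higher (median -0.33), while 5 of 7 lysozymes were lower and 1 higher (median -1.86). In 8 h against 0 h, 3 sugar genes were higher and none lower, among them Mal-A8 (1.48 ± 0.36) and Mal-A6 (0.94 ± 0.21). Over all genes 10.5% were called in this comparison and 6.46% were called higher. Of 9 genes of the midgut epithelium, 3 were also higher and none lower (median 0.62), while no lysozyme was called.

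Genes of the midgut epithelium were mostly higher in old flies. Of 9 such genes 6 were higher and 1 lower in WT old than in WT young flies (median 0.61), and 5 were higher and 1 lower in ablated old than in ablated young flies. The septate junction genes mesh (1.36 ± 0.14), Ssk (1.34 ± 0.14) and Tsp2A (1.32 ± 0.16) rose in WT flies. The summed level of the 9 was 360 to 502 CPM in ablated old and 179 to 323 CPM in ablated young flies, and 339 to 560 CPM in WT old and 150 to 264 CPM in WT young flies, without overlap between the ages in either genotype. Between genotypes 4 of 9 were higher and 1 lower in old flies and 3 were higher and none lower in young flies, shares near those over all genes.

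Of 8 enteroendocrine peptide genes, 3 were higher and none lower with age in WT flies, and between genotypes 2 were higher and 3 lower in ablated old flies and 5 were higher in ablated young flies. The share called in old flies, 5 of 8, was near the 56.9% over all genes. Of the 3 tested peritrophic matrix genes, which line the gut lumen, 2 rose with age in WT flies, while Peritrophin-15b had no count in any library. Of 10 genes of nutrient signalling upstream of digestive enzymes, 1 was higher and 4 lower in ablated old flies and 4 were higher and 4 lower in ablated young flies. The share called in old flies, 5 of 10, was also near that over all genes. daw, an activin-like ligand known to repress sugar-digesting enzymes in the midgut, was lower in ablated flies. Its log2 fold fall was 2.45 ± 0.26 in old and 1.10 ± 0.26 in young flies. tobi, a glucosidase gene known to respond to insulin-like peptides and adipokinetic hormone, was higher by 1.13 ± 0.30 and 1.15 ± 0.30. Other genes of the list were also lower in ablated old than in WT old flies. InR was at 20.3 to 32.1 CPM, against 167 to 315 CPM. foxo was at 27.7 to 36.7 CPM, against 116 to 143 CPM, and babo at 37.7 to 52.8 CPM, against 76.7 to 91.0 CPM. In young flies the ranges of these 3 genes overlapped between genotypes. The part of any listed gene in the enzyme levels was not tested.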

How the data were processed

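Whole-fly RNA was made into libraries with Lexogen's Quant 3' mRNA-Seq V2 kit, per the labels' protocols, and read 1 alone was used. The authors deposited 1 table of unnormalized read counts, with genes in rows and libraries in columns, which were used unchanged. The submitters' processing notes name STAR 2.7.5a and the dm6 build. How reads were counted (tool, annotation, strand, molecular identifiers) was not given in the sources used here. Symbols were matched to 17596 of 17609 FlyBase identifiers.

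The 40 groups came from the labels, with 1 library each. All genes were fitted with edgeR 4.0.16 in R 4.3.3 (TMM, filterByExpr, robust quasi-likelihood, 28 residual degrees of freedom, common dispersion 0.0681). The model takes the hour effects as equal in every combination of genotype and age, and its p-values measure scatter around it. Slopes used 24 libraries, 11467 genes and 13 residual degrees of freedom. SE was taken from the fold change and the F statistic. The SE thus includes the scatter of libraries around the model, and no condition had a replicate.

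The members, comparison lists and naming rule were chosen with earlier results of these data known. Members past the threshold in a comparison at an average log2 CPM of at least 1 were named, up to 8 per comparison, with the 4 most abundant and Ser6. Other members are given by counts, and those named singly outside this rule (Jon66Cii among them) were chosen after their values were seen. Up to 3 called genes per list were named with fold changes, and InR, foxo and babo were added by level. The fit, without its robust option, was also run on counts simulated from the same additive model with independent libraries. Such counts cannot test unequal hour courses or the confounding by batch and library set, so no conclusion is drawn from them. The count filter was applied anew in each alternative design. Alternatives were DESeq2 1.42.0, RLE factors, other count filters, batch as a covariate, subsets of libraries and leaving out each hour or control. No library pair was identical. Positions came from the Ensembl annotation of the dm6 assembly. No sequences were used here.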

Additional observations from a re-analysis of the deposited data

Results flagged for a closer look

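Age effects that differed between ablated and WT flies by edgeR's interaction test were singled out in 8 genes. Each had a smaller fall with age in ablated flies. The 8 were 29.6% of the 27 tested, below the 36.4% of all genes called and above the 15.5% called higher. The differences were 2.11 for Jon65Ai, 1.83 for Jon65Aii, 1.50 for Jon99Fi, 1.50 for Jon44E, 1.13 for zetaTry, 1.12 for thetaTry, 1.08 for epsilonTry and 0.97 for Jon99Fii on the log2 scale, with Benjamini-Hochberg adjusted p-values up to 0.0402. The difference between genotypes rests on ablated young libraries of which 2 go against their labels in heat shock genes and 2 group with WT on noncoding genes. With the 2 doubtful libraries (labelled control and 6 h, ablated young) left out, 7 of the 8 stayed called, with differences of 0.90 to 2.15. Without those of 0 h and 1 h, 3 of the 8 did (Jon65Ai, Jon99Fi and thetaTry), with differences of 0.83 to 1.87 over the 8.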

How the results depend on the processing

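Of 241 recomputed counts of called genes, 200 stayed within 1.5 times the count given above and 41 moved beyond it, and of the fold changes of single genes 4153 kept their direction and side of the threshold, 199 lost the call, 55 gained one and 13 turned sign. Below, the share of all genes called in the same fit stands in brackets. Heat shock at 4 h against control gave 2 called genes with DESeq2 (2.35%) and 0 without a count filter (0.355%). It gave 3 with batch as a covariate (1.76%) and 3 in 4 h libraries alone (1.27%). When an hour or a control was left out it gave 0 to 3 (0.0437% to 1.54% in the fits that moved). At 8 h against control there were 4 in set 1 alone (6.45%) and 2 in WT alone (6.56%). At 8 h against 0 h there were 9 with DESeq2 (12.8%), 1 with batch (2.38%) and 7 with library set (11.1%). There were 15 in set 1 alone (12.4%) and 13 in WT alone (12.4%). Any difference among hours gave 5 with DESeq2 (12%), 1 with batch (2.98%) and 5 without the libraries in doubt (9.83%). It gave 12 in set 1 (11.7%), 7 in WT (11.9%) and 1 to 3 on leaving out (4.37% without 0 h, the fit that moved). Old against young gave 0 in WT with batch (0.614%). In ablated flies it gave 5 with batch (7.56%), 7 without the libraries in doubt (37.9%) and 7 to 11 on leaving out (37.5% without 6 h, the fit that moved). Ablated against WT in young flies gave 1 with batch (1.57%), 2 with library set (14.5%) and 2 in set 1 (20.7%). In old flies it gave 0 with batch (1.55%) and 3 with library set (4.3%). The difference between age effects gave 0 with batch (2.22%) and 4 with library set (26.7%), of which Ser6 had the other sign. It gave 4 without the ablated young libraries of 0 h and 1 h (27.8%). On leaving out it gave 3 to 10 (27.5% to 34.5% in the fits that moved). The slope difference between genotypes gave 1 with DESeq2 (7.35%).

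With batch as a covariate the log2 fold change turned to 0.035 for Jon99Ci (age, WT), -1.06 for Jon66Ci (age, ablated) and -0.54 for Jon99Fi (genotype, old), and the difference between age effects to -0.53 for epsilonTry, -0.42 for Jon99Fi, -0.35 for zetaTry, -0.62 for Jon99Fii, -0.43 for Jon44E and -0.039 for thetaTry. In young flies the genotype difference turned to -0.073 for Jon65Aiv and -0.012 for Jon25Bii with library set, and to -0.12 for both in set 1 alone. The cause was not tested. The fits with library set, set 1, WT alone and without the ablated young 0 h and 1 h libraries were chosen after seeing the data. The labels give no replicate numbers, so no fit with a replicate block was made, and libraries matched by hour and behaviour were compared by their ratios. Depth limits the genes under 1 CPM, which rest on few counts.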
